A study of Homo sapiens with 4 samples.

Results

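The RNA polymerase genes of a human leukemia line were compared between cells carrying a hairpin against SOX4 and cells carrying a scrambled hairpin. The group held 43 of the 64252 gene IDs in the count table. They were the protein-coding genes named POLR1, POLR2 or POLR3 with a subunit letter, together with POLR3GL, POLR2J2, POLR2J3 and 10 initiation factors and regulators of polymerases I and III. A further 14 POLR1 to POLR3 symbols in the table, mostly pseudogenes, were not protein-coding and were left out. All 43 passed the filter on low counts, 33 of them subunits, 6 polymerase I factors and 4 polymerase III factors.

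Jurkat is an established T cell acute lymphoblastic leukemia line. RNA-seq libraries were made from 2 groups of it, with 2 libraries each: sh-SOX4, transfected with a short hairpin RNA against SOX4, and sh-Scb, transfected with a scrambled hairpin. The labels name no other treatment, no time after transfection and no hairpin sequence. Library totals were 32872606 and 30830081 counts for sh-SOX4, against 36636219 and 29093287 for sh-Scb. SOX4 itself stood at 191 and 199 CPM (counts scaled to library size) in the sh-SOX4 libraries, against 271 and 277 CPM in the sh-Scb libraries. The groups did not overlap, and SOX4 fell by 0.49 on the log2 scale (SE 0.044, edgeR adjusted p 1.24e-05). All 10 T cell markers examined were measured, with summed levels of 2077 and 2082 CPM in sh-SOX4 and 1653 and 1639 CPM in sh-Scb. Of 6 B cell markers 5 could be tested, MS4A1 being too low; they summed to 16.5 and 14.8 CPM in sh-SOX4 and 69.3 and 67.4 CPM in sh-Scb, of which CD79A made up 13.15 and 13.4 CPM in sh-SOX4 and 67.2 and 65.9 CPM in sh-Scb. Of 8 myeloid markers 6 could be tested, LYZ and MPO being too low. They summed to 31.7 and 30.7 CPM in sh-SOX4 and 11.5 and 14.3 CPM in sh-Scb. Of this, S100A9 made up 23.4 and 23.1 CPM in sh-SOX4 and 4.63 and 3.82 CPM in sh-Scb. CD68 alone was lower in sh-SOX4, at 4.19 and 3.73 CPM against 5.13 and 8.27 CPM in sh-Scb. Of 7 epithelial and fibroblast markers 2 could be tested, and they summed to 17.7 and 17.8 CPM in sh-SOX4 and 24.8 and 26.5 CPM in sh-Scb. The part of these markers in the results was not tested.

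Nuclear genes are transcribed by 3 RNA polymerases. Polymerase I (Pol I) works in the nucleolus and makes the long precursor of the ribosomal RNAs, polymerase II (Pol II) makes messenger RNA, and polymerase III (Pol III) makes transfer RNAs, the smallest ribosomal RNA and other short RNAs. Each enzyme has its own catalytic and peripheral subunits, Pol I and Pol III share a small assembly platform, and a few small subunits are common to all 3. Pol I and Pol III output is known to follow cell growth, and MYC, which was at 192 and 194 CPM in sh-SOX4 and 49.2 and 52.1 CPM in sh-Scb, is a known activator of both; its part in the results was not tested.

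Among subunits found in 1 enzyme alone, 5 of 6 of Pol I, 8 of 10 of Pol III and 7 of 10 of Pol II rose in sh-SOX4. Of the 43 genes, 30 rose in sh-SOX4 and none fell at an adjusted p under 0.05 in edgeR's quasi-likelihood test; 1 gene, TAF1C, was lower at an unadjusted p under 0.05. Of all 19897 gene IDs tested, 23.2% were called higher and 20.9% lower, 44.1% in all. Among IDs with at least 10 CPM in 2 libraries, refitted alone, 33.1% were called higher, and there 27 of the 41 polymerase genes that met this level rose. Calls of at least 2-fold (a log2 fold change of 1 or more) covered 8 of the 43 genes, against 3.39% of all IDs tested. The median log2 fold change of the 43 was 0.42, beside -0.01 for all IDs tested. For 33 of the 43 genes both sh-SOX4 libraries lay above both sh-Scb libraries, and for 1 both lay below. Over all IDs tested these counts were 7220 (36.3%) and 7290 of 19897.

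The size of the change was summarised by role group. The median log2 fold change was 0.94 for the 6 subunits found in Pol I alone, 0.63 for the 10 of Pol III alone and 0.29 for the 10 of Pol II alone. It was 0.58 for the 2 subunits that Pol I and Pol III share and 0.42 for the 5 common to all enzymes. The sets are small, and these medians are descriptions, and the differences between them were not tested. The Pol I-only median includes POLR1H, whose counts varied widely within each group. In the fit of IDs with at least 10 CPM in 2 libraries, where POLR1H dropped out, that median was 1.02. With scaling to library totals the median of all IDs moved from -0.01 to -0.11. The group medians became 0.84 for Pol I alone, 0.53 for Pol III alone and 0.19 for Pol II alone. Such scaling shifts all genes by about the same amount, so it could not change this order and is no test of it.

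**Figure D1:**
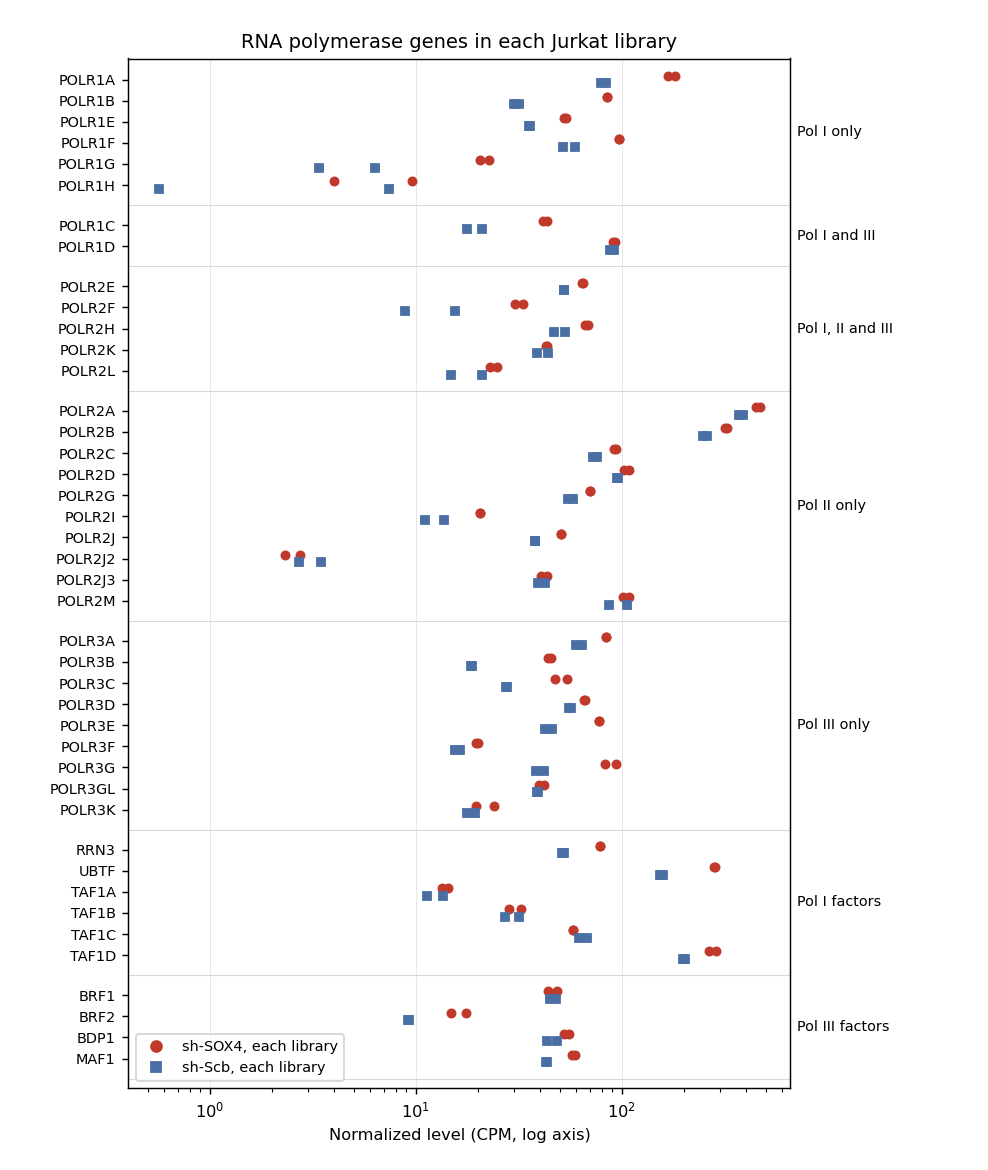
Normalized level (CPM, log axis) of the polymerase genes in each library, grouped by polymerase; red circles are the 2 sh-SOX4 libraries and blue squares the 2 sh-Scb libraries. The circles lie right of both squares for most genes, with the widest gaps among Pol I and Pol III genes and POLR1H spread over both groups. Of all IDs tested, 36.3% had both sh-SOX4 libraries above both sh-Scb libraries.

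POLR1B, which forms the Pol I active site with POLR1A, had the largest rise among the Pol I genes whose exons overlap no other gene. POLR1B (chromosome 2, 112541915 to 112577150 on GRCh38) stood at 85.2 and 84.9 CPM in the sh-SOX4 libraries, against 31.9 and 30.1 CPM in the sh-Scb libraries. The groups were far apart relative to the spread within each, with a log2 fold change of 1.46 (SE 0.064) and an adjusted p of 1.35e-07 in edgeR's quasi-likelihood test. POLR1A, the largest subunit (chromosome 2, 86020216 to 86106155), was at 167 and 181 CPM in sh-SOX4 and at 79.6 and 84.4 CPM in sh-Scb. Both sh-SOX4 libraries lay far above both sh-Scb libraries, with a fold change of 2.12 and a log2 fold change of 1.09 (SE 0.057, edgeR adjusted p 3.70e-07).

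Among the peripheral Pol I subunits, POLR1F, part of the stalk, was at 96.7 CPM in each sh-SOX4 library and at 52.0 and 59.3 CPM in sh-Scb. POLR1E, which pairs with POLR1G in a subcomplex used in initiation and elongation, was at 53.6 and 52.8 CPM in sh-SOX4 and at 36 and 35.6 CPM in sh-Scb. Both rose, POLR1F by 0.80 (SE 0.067, edgeR adjusted p 8.42e-06) and POLR1E by 0.57 (SE 0.070, edgeR adjusted p 9.86e-05) on the log2 scale. POLR1G, the partner of POLR1E, had 650 and 676 counts in sh-SOX4, against 240 and 102 counts in sh-Scb. The log2 fold change of 2.13 (SE 0.29, edgeR adjusted p 0.00283) was the largest of the 43 genes, but its sh-Scb libraries differed from each other: it was 2.67 without sh-Scb replicate 1 and 1.76 without sh-Scb replicate 2. The exons of ERCC1 on the opposite strand cover 43.5% of the exonic bases of POLR1G, and ERCC1 had a log2 fold change of 0.21. The use of strand in counting is not stated, so reads of the overlap cannot be assigned.

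POLR1H, a small subunit that takes part in RNA cleavage, did not pass. Its counts were 128 and 287 in sh-SOX4, against 281 and 17 in sh-Scb. The spread within each group was larger than the difference between them, the 95% interval of the log2 fold change ran from -5.36 to 6.85, and nothing can be read from its direction. The pseudogene POLR1HASP on the opposite strand covers 24.5% of its exonic bases.

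The platform on which Pol I and Pol III assemble consists of POLR1C and POLR1D, and these did not move alike. POLR1C was at 43.4 and 41.5 CPM in sh-SOX4 and at 21.1 and 17.7 CPM in sh-Scb. It rose by 1.13 (SE 0.10, edgeR adjusted p 1.30e-05) on the log2 scale. POLR1D was at 92.4 and 90.9 CPM in sh-SOX4 and at 92.3 and 87.4 CPM in sh-Scb. These groups overlapped, and the 95% interval of its log2 fold change, -0.09 to 0.15, lies wholly below that of POLR1C, 0.90 to 1.36.

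Of the Pol I initiation factors, UBTF, which binds ribosomal DNA along its length, was at 281 and 285 CPM in sh-SOX4 and at 159 and 154 CPM in sh-Scb. RRN3, which makes Pol I competent to initiate, was at 78.3 and 78.4 CPM in sh-SOX4 and at 51.5 and 52.6 CPM in sh-Scb. UBTF rose by 0.85 (SE 0.043) and RRN3 by 0.59 (SE 0.057) on the log2 scale, with edgeR adjusted p of 3.31e-07 and 1.99e-05. RRN3 has 5 annotated pseudogene copies, and 20.3% of the 50-base words in its transcripts also occur in those of RRN3P2, which had only 15 to 27 counts per library. The 4 TAF1 genes code for the TBP-associated subunits of the promoter selectivity factor SL1, and only TAF1D rose, by 0.46 (SE 0.049). TAF1A stood at 0.16, TAF1B at 0.05 and TAF1C at -0.17 on the log2 scale, and none of these 3 passed. TAF1C was at 57.8 and 58.3 CPM in sh-SOX4, below the 62.2 and 68.2 CPM in sh-Scb, with an adjusted p of 0.0623. It was called lower, at adjusted p of 0.00816, 0.00869 and 0.018, with library totals, among genes at 10 CPM or more in 2 libraries and without sh-Scb replicate 1.

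**Figure D2:**
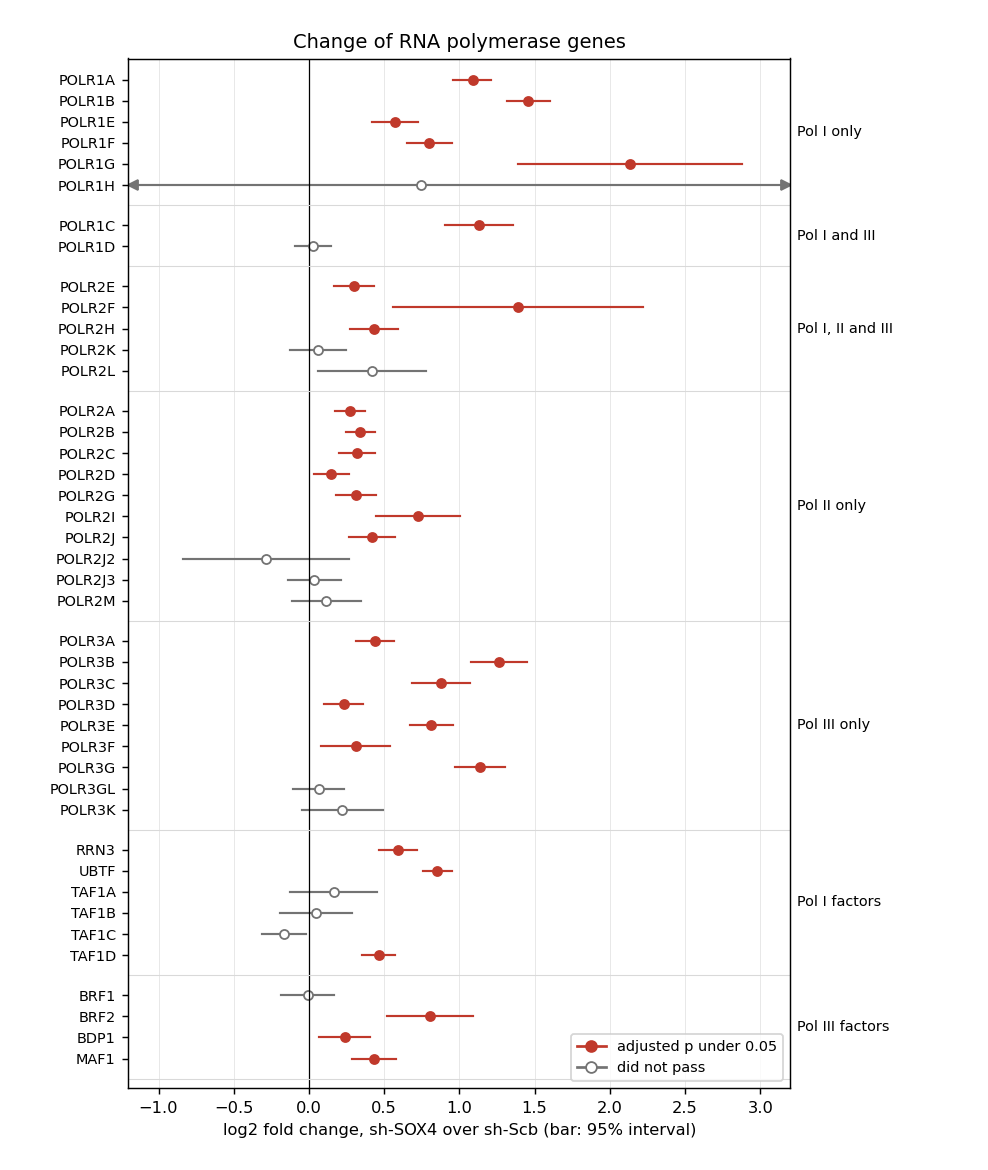
Log2 fold change of the polymerase genes (sh-SOX4 over sh-Scb, points) with its 95% interval from the edgeR model (bars); red filled points passed at an adjusted p under 0.05, grey open points did not, and arrows mark the POLR1H interval running past the axis. The red points of Pol I and Pol III extend beyond 1, and the Pol II-only subunits that passed lie between 0.15 and 0.72.

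Subunits of Pol III alone ranged from no call to rises of over 2-fold. POLR3B, which forms the active site with POLR3A, was at 43.8 and 45.6 CPM in sh-SOX4 and at 18.7 and 18.6 CPM in sh-Scb. Each sh-SOX4 library was over 2-fold above each sh-Scb library, with a log2 fold change of 1.26 (SE 0.084, edgeR adjusted p 1.74e-06). POLR3A, the largest subunit, was at 83.8 and 84.4 CPM in sh-SOX4 and at 60.1 and 64.0 CPM in sh-Scb, and rose by 0.44 (SE 0.057, edgeR adjusted p 0.000147). The 95% interval of POLR3A, 0.31 to 0.57, lies below that of POLR3B, 1.08 to 1.45, so the genes of the 2 active-site subunits rose by different amounts.

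Subunits that help Pol III open and leave promoters also rose. POLR3C, of the initiation subcomplex, was at 47.5 and 54.1 CPM in sh-SOX4 and at 27.8 and 27.5 CPM in sh-Scb, and rose by 0.88 (SE 0.087, edgeR adjusted p 2.36e-05). POLR3E was at 77.5 and 78.1 CPM in sh-SOX4 and at 42.5 and 46.1 CPM in sh-Scb, and rose by 0.81 (SE 0.064, edgeR adjusted p 5.34e-06). Its partner POLR3D rose by less, 0.23 (SE 0.059), and did not pass with library totals. POLR3F, which joins POLR3C, rose by 0.31 with an adjusted p of 0.0332, but missed the threshold in each of the 4 fits that left out a library, with adjusted p from 0.0504 to 0.14. POLR3K, which takes part in RNA cleavage and termination, was at 19.6 and 23.9 CPM in sh-SOX4 and 19.5 and 17.8 CPM in sh-Scb, and its difference of 0.22 on the log2 scale did not pass. The value was 0.36, and passed with an edgeR adjusted p of 0.0375, without sh-SOX4 replicate 1; leaving out sh-SOX4 replicate 2 gave 0.072.

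One subunit of that initiation subcomplex comes in alternative forms, coded by POLR3G and POLR3GL. POLR3G (chromosome 5, 90471748 to 90514553) is known as the form abundant in stem cells and many tumor lines, and POLR3GL (chromosome 1, 145964702 to 145978848) as the form present in most tissues. POLR3G was at 93.6 and 83.4 CPM in sh-SOX4 and at 38.5 and 41.9 CPM in sh-Scb, a log2 fold change of 1.14 (SE 0.074, edgeR adjusted p 1.64e-06). POLR3GL was at 39.6 and 42.1 CPM in sh-SOX4 and at 38.9 and 39.2 CPM in sh-Scb, and its log2 fold change of 0.06 had a 95% interval of -0.11 to 0.23, wholly below that of POLR3G, 0.97 to 1.31. Another ID on the same strand covers 21.2% of the exonic bases of POLR3GL.

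The share of POLR3G among the counts of the pair does not depend on scaling between libraries. It was 70.3% (95% exact binomial interval 68.9% to 71.6%) and 66.5% (64.9% to 68.0%) in the sh-SOX4 libraries. In the sh-Scb libraries it was 49.7% (47.9% to 51.6%) and 51.7% (49.7% to 53.7%). These intervals cover counting error only, and the sh-SOX4 libraries differed from each other by more than it. The mean difference was 17.7 percentage points, between 15.8 and 19.6 when any library was left out; 2 libraries against 2 allow no exact permutation p below 0.333. Per length of annotated exons, POLR3G made up 51.4% and 47.0% of the pair in sh-SOX4, against 30.7% and 32.4% in sh-Scb.

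**Figure D3:**
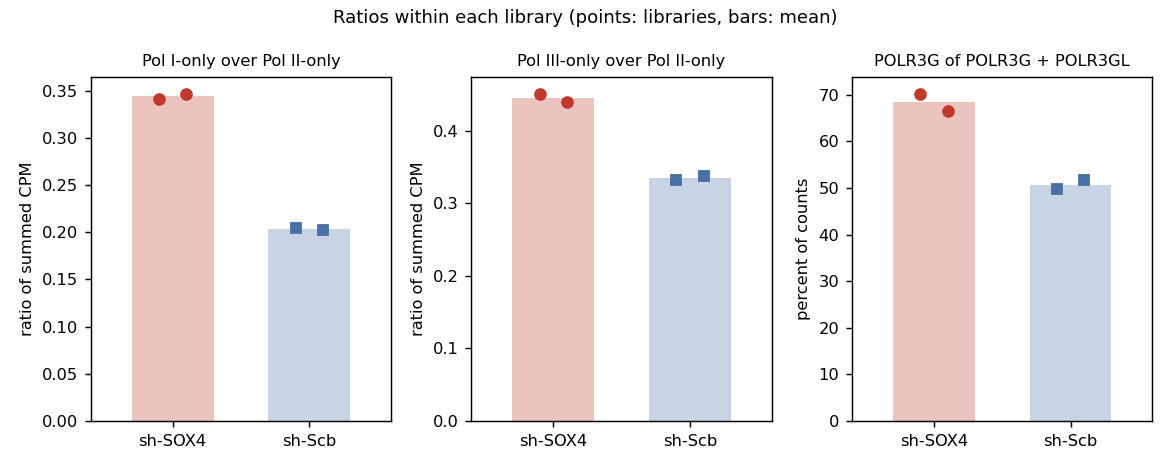
Left and middle, summed CPM of Pol I-only and Pol III-only subunits divided by that of Pol II-only subunits; right, percent of POLR3G plus POLR3GL counts that came from POLR3G; points are libraries and bars the mean of 2. In each panel both sh-SOX4 libraries lie above both sh-Scb libraries, at 0.341 and 0.347 against 0.204 and 0.202 in the left panel.

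Among the factors that bring Pol III to its promoters, BRF1 and BDP1 are parts of TFIIIB and BRF2 replaces BRF1 at promoters of the U6 type. BRF1 was at 43.7 and 48.5 CPM in sh-SOX4 and at 44.7 and 48.1 CPM in sh-Scb, with no difference beyond the spread. BRF2 was at 14.9 and 17.5 CPM in sh-SOX4 and at 9.21 and 9.33 CPM in sh-Scb, and rose by 0.81 (SE 0.13, edgeR adjusted p 0.000558) on the log2 scale. ADGRA2 on the opposite strand covers 59.0% of the exonic bases of BRF2 and had a log2 fold change of -0.25. BDP1 rose by 0.24 on the log2 scale with an edgeR adjusted p of 0.0302. It missed the threshold with library totals (edgeR adjusted p 0.178, with a log2 fold change of 0.14). The same held among genes at 10 CPM or more (edgeR adjusted p 0.061) and with DESeq2 (adjusted p 0.0557). BDP1 also did not pass without sh-SOX4 replicate 1, at a log2 fold change of 0.20, or without sh-Scb replicate 1, at 0.16. MAF1, the repressor of Pol III, was at 57.1 and 59.2 CPM in sh-SOX4 and at 43.0 and 43.3 CPM in sh-Scb. It rose by 0.43 (SE 0.065, edgeR adjusted p 0.000405), so the repressor rose along with the subunits.

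Of the 10 subunits of Pol II alone, 7 rose, with log2 fold changes of 0.15 to 0.72, and 3 did not pass. POLR2A, the largest subunit with the repeated tail that couples transcription to RNA processing, was at 448 and 472 CPM in sh-SOX4 and at 373 and 388 CPM in sh-Scb. POLR2B, its partner at the active site, was at 318 and 327 CPM in sh-SOX4 and at 259 and 249 CPM in sh-Scb. Both were higher in every sh-SOX4 library than in any sh-Scb library, with log2 fold changes of 0.27 (SE 0.044, edgeR adjusted p 0.000612) and 0.34 (SE 0.043, edgeR adjusted p 0.000127). With library totals POLR2A stood at 0.17. POLR2C and POLR2J, which form the assembly platform of Pol II, rose by 0.32 and 0.42, and the stalk subunit POLR2G by 0.31. The other stalk subunit, POLR2D, rose by 0.15 with an adjusted p of 0.0443. POLR2D missed the threshold without sh-SOX4 replicate 2 (0.305, with a log2 fold change of 0.10), without sh-Scb replicate 1 (0.0575) and without sh-Scb replicate 2 (0.113). It also missed it with library totals (0.479, with a log2 fold change of 0.050), among genes at 10 CPM or more (0.197, at 0.085), with no filter (0.0853), with the replicate block (0.0716), with DESeq2 (0.114) and with limma-voom (0.0566). Against a minimum change of 1.2-fold, a test chosen after seeing the data, POLR2A, POLR2B, POLR2C, POLR2D and POLR2G did not pass, and 21 of the 43 genes did.

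POLR2I, which supports accuracy of transcription, had the largest log2 fold change of the Pol II-only subunits, 0.72 (SE 0.12, edgeR adjusted p 0.000949), at 20.6 CPM in each sh-SOX4 library and 13.8 and 11.2 CPM in sh-Scb. Other annotated genes cover 79.6% of its exonic bases, all on the opposite strand, so its reads are partly ambiguous. POLR2M, known for making Pol II depend on Mediator, was not called, and its groups overlapped. GCOM1 on the same strand covers 21.1% of the exonic bases of POLR2M. The POLR2J copies on chromosome 7 are hard to tell apart: 31.4% of the 50-base words of POLR2J occur in transcripts of POLR2J3. A further annotated ID, absent from the deposited counts, also bears the symbol POLR2J3. It holds 89.9% of the words of POLR2J2 and 45.8% of those of the POLR2J3 counted here. POLR2J rose, while POLR2J3 at 40.7 and 43.5 CPM in sh-SOX4 and 42.7 and 39.4 CPM in sh-Scb did not pass, and POLR2J2 was between 2.33 and 3.49 CPM in every library and did not pass.

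Of the subunits common to all 3 enzymes, POLR2E rose by 0.30 (SE 0.059) and POLR2H by 0.43 (SE 0.072). POLR2F was at 33.1 and 30.3 CPM in sh-SOX4 and at 8.86 and 15.5 CPM in sh-Scb. Its log2 fold change of 1.39 (SE 0.30) had an adjusted p of 0.0259, the weakest support among the genes that changed over 2-fold, and it did not pass without sh-SOX4 replicate 1 (0.273) or without sh-SOX4 replicate 2 (0.204). POLR2K, at 0.06, did not pass. POLR2L, at 24.9 and 23.1 CPM in sh-SOX4 and 21.0 and 14.8 CPM in sh-Scb, had 0.42 with an edgeR adjusted p of 0.0599. It passed with DESeq2 (adjusted p 0.0497) and with the replicate number as a block (edgeR adjusted p 0.0195). Its log2 fold change was 0.69 without sh-Scb replicate 1 and 0.19 without sh-Scb replicate 2. CD151 on the opposite strand covers 22.5% of the exonic bases of POLR2L and had a log2 fold change of 0.10.

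The RNA levels of the subunits were also summed by enzyme in each library. These sums are not corrected for length and do not measure amounts of enzyme. The active-site genes weigh heavily in them. In sh-SOX4 POLR2A and POLR2B averaged 460 and 322 CPM, and POLR1A and POLR1B 174 and 85.0 CPM. Subunits of Pol I alone summed to 427 and 448 CPM in sh-SOX4, against 213 CPM in each sh-Scb library, a ratio of means of 2.05. Those of Pol III alone summed to 565 and 567 CPM in sh-SOX4 and to 348 and 356 CPM in sh-Scb, a ratio of 1.61. Those of Pol II alone summed to 1253 and 1290 CPM in sh-SOX4 and to 1047 and 1058 CPM in sh-Scb, a ratio of 1.21. The Pol III sum divided by the Pol II sum was 0.451 and 0.439 in sh-SOX4, against 0.332 and 0.337 in sh-Scb. For single genes, POLR1B counts divided by POLR2B counts gave 0.268 and 0.260 in sh-SOX4 and 0.123 and 0.121 in sh-Scb. POLR3A over POLR2A was 0.187 and 0.179 in sh-SOX4 and 0.161 and 0.165 in sh-Scb, a smaller difference. In all these ratios the groups did not overlap. For single genes this was common: 7220 of the 19897 IDs tested had sh-SOX4 above and 7290 had it below.

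Levels per length of annotated exons (transcript shares, TPM) order the active-site subunits within a library. POLR2A stood at 183 and 193 TPM in sh-SOX4 and at 175 and 184 TPM in sh-Scb, and POLR2B at 184 and 189 TPM in sh-SOX4 and 172 and 168 TPM in sh-Scb. POLR1A and POLR1B were at 42.2 to 45.9 TPM in sh-SOX4 and 18.8 to 24.8 TPM in sh-Scb. In sh-SOX4, POLR3A and POLR3B stood below POLR1A and POLR1B, at 30.8 to 32.3 TPM. In sh-Scb the values were 26.4 and 28.5 TPM for POLR3A and 15.1 and 15.2 TPM for POLR3B. By this measure POLR3A was above both Pol I active-site genes in sh-Scb, and in sh-SOX4 both Pol I genes were above it. The length used is that of all annotated exons together, 13519 bases for POLR1A and 8917 for POLR3A. The transcripts present may be shorter, so the order of genes this close is uncertain. TPM was used here only to order genes within a library.

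The promoters of the rising genes were read for short motifs, because MYC and its partners bind CACGTG, the canonical E-box, and SOX factors bind AACAAT. RefSeq windows on GRCh38.p14 from 250 bases before to 50 bases after a transcription start were at hand for 32 of the 43 genes. CACGTG, which reads the same on both strands, was present in 4 of the 32, POLR1G, POLR3A, POLR3C and POLR3E, against 8.77% of 27305 genes. All 4 rose, as did 21 of the 32 genes with a window. These 4 windows are shown with the E-box in capitals, together with 1 of the 2 windows of POLR1B, which has the largest rise among genes that share no exonic base with another gene and holds no CACGTG. All are written 5′ to 3′ on the gene's strand.
POLR1G, plus strand, chr19:45406394-45406693: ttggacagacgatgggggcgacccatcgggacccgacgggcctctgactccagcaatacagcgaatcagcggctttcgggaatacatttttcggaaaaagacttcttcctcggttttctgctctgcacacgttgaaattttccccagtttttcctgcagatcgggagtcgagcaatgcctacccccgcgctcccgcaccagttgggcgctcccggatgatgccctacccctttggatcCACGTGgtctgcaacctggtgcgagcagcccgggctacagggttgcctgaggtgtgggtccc
POLR3A, minus strand, chr10:78029466-78029765: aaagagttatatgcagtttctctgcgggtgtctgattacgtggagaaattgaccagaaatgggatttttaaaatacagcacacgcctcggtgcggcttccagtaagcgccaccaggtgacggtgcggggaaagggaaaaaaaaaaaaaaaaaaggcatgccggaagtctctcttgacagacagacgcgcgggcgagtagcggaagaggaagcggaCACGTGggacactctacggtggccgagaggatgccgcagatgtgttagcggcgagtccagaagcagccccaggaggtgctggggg
POLR3C, plus strand, chr1:145823950-145824249: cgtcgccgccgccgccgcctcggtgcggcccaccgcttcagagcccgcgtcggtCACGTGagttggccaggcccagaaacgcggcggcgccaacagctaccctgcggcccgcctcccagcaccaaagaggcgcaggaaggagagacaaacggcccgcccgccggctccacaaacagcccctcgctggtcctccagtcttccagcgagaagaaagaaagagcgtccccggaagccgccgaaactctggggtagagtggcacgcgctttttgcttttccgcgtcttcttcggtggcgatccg
POLR3E, plus strand, chr16:22297159-22297458: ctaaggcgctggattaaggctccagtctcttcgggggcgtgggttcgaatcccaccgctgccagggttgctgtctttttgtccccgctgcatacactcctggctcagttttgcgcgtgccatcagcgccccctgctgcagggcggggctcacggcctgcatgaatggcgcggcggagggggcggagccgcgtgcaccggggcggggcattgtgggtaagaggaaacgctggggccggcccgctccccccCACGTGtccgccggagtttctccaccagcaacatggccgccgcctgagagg
POLR1B, plus strand, chr2:112541786-112542085: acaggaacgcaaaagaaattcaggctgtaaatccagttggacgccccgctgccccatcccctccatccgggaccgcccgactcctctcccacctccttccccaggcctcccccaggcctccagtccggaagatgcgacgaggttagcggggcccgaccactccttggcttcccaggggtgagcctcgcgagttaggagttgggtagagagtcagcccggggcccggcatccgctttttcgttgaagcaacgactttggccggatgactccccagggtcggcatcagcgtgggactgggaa

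The first base of the E-box lies 12 bases before the start in POLR1G, 35 in POLR3A, 196 in POLR3C and 1 in POLR3E. POLR3C has 2 windows, and its distance is for the first of them that holds CACGTG. A match is a description of these letters, not a site of binding. The upstream end of the POLR3E window overlaps an annotated leucine tRNA gene, TRL-AAG2-4 (chromosome 16, 22297140 to 22297221), a gene class that Pol III itself transcribes. AACAAT or its reverse complement was found in 1 of the 32 genes, POLR1A, against 12.2% of all genes, and TATAAA in 1, POLR2M, against 14.0%. CCGGAAG, a motif of ETS factors, was in 14 of the 32 on either strand, against 12.2% of all genes. Those 14 include 9 that rose, among them POLR1B and POLR1C, and 5 that did not, TAF1A, TAF1B, TAF1C, POLR2J2 and POLR2M. The palindromic NRF1 motif was in 3, POLR2F, POLR2H and POLR3B, against 1.52%. For every motif the comparison genes were not limited to expressed, protein-coding genes, as the 32 are. The shares are therefore not like for like, and nothing is read from their differences.

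Of these 32 genes, 13 had a neighbouring protein-coding gene inside the promoter window, 14 neighbours in all. Of the neighbours 3 were called higher, 4 lower and 7 neither, against 23.2% higher and 20.9% lower over all IDs tested, so nothing is read from these counts. ZBTB4, a zinc finger gene next to POLR2A, had a log2 fold change of -0.21 and C11orf54, next to TAF1D, of -0.28, while POLR2A and TAF1D rose. YIPF3, next to POLR1C, was at 0.08 and did not pass.

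**Figure D4:**
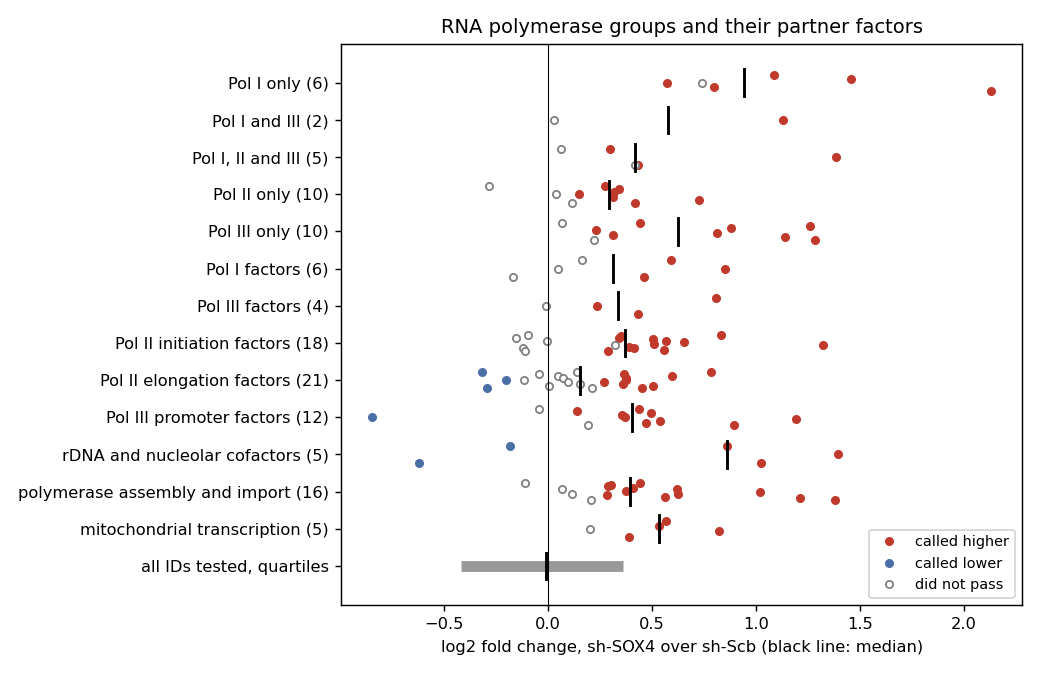
Log2 fold change (sh-SOX4 over sh-Scb) of every gene in the 7 polymerase groups and 6 lists of partner factors, with the number of genes in brackets; red, blue and open points are genes called higher, called lower and not called, black lines are medians, and the grey bar spans the quartiles of all IDs tested, -0.42 to 0.36. The Pol I-only and nucleolar lists have the highest medians, 0.94 and 0.86, and the Pol II elongation list the lowest, 0.15.

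Partner factors were described from 6 lists, naming up to 3 genes of each by smallest adjusted p. For all the list counts below, the shares over all IDs tested are 23.2% called higher and 20.9% lower. Among IDs with at least 10 CPM in 2 libraries 33.1% were called higher. Of 12 genes of the Pol III promoter factors TFIIIA, TFIIIC and SNAPc, 9 rose and 1 fell, with a median log2 fold change of 0.40. GTF3C6, a TFIIIC subunit, averaged 51.2 ± 1.94 CPM in sh-SOX4, against 22.4 ± 0.81 CPM in sh-Scb (SD, n = 2 each). GTF3A, which binds the 5S ribosomal RNA gene, rose by 0.44. The gene that fell was SNAPC3, a subunit of the complex that binds small nuclear RNA promoters, at 60.9 ± 1.83 CPM in sh-SOX4 and 109.5 ± 1.30 CPM in sh-Scb (SD, n = 2 each), a decrease that edgeR put at an adjusted p of 1.17e-06. Of 5 ribosomal DNA and nucleolar cofactors, NOLC1, NCL and TCOF1 rose, by 1.40, 1.03 and 0.86. The 2 that fell, named after their values were seen, were TTF1, the Pol I termination factor, by 0.19 and BAZ2A, which silences ribosomal DNA repeats, by 0.62.

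Of 16 assembly and import factors 12 rose and none fell in edgeR's test, and none was lower at an unadjusted p under 0.05. RUVBL1, an ATPase of the chaperone complex that assembles polymerases, averaged 84.7 CPM in sh-SOX4 and 41.8 CPM in sh-Scb, and the chaperones HSP90AA1 and HSP90AB1 rose by 1.21 and 1.38 on the log2 scale. Of 18 Pol II initiation factors 12 rose and none fell in edgeR's test, with none lower at an unadjusted p under 0.05. Their median was 0.37, with GTF2A2 at 0.83, GTF2F1 at 0.50 and GTF2H3 at 0.51. TBP, which all 3 enzymes use and which was named after its value was seen, stood at -0.10 and did not pass. Among the 21 elongation factors 9 were higher, with SUPT6H at 0.60, SUPT4H1 at 0.78 and CTR9 at 0.50. The 3 lower ones, named after their values were seen, were HEXIM1 (an inhibitor of the elongation kinase P-TEFb), AFF4 and RTF1. Of 5 mitochondrial transcription genes 4 rose, among them POLRMT, the separate polymerase of mitochondria, by 0.57, TFAM by 0.53 and TFB2M by 0.82.

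Of the products of Pol III, only 1 kind was looked up. RN7SL1 and RN7SL2, the Pol III-transcribed RNA of the signal recognition particle, were chosen after the other values were seen. RN7SL1 had 16 and 9 counts in the sh-SOX4 libraries and 24 and 28 in the sh-Scb libraries, and RN7SL2 had 20 and 23 in sh-SOX4 and 32 in each sh-Scb library. Neither passed, and the counts are too low to speak of the activity of Pol III.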

How the data were processed

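The authors deposited raw counts per Ensembl gene ID for the 2 sh-SOX4 and 2 sh-Scb libraries. HISAT2 2.2.0, StringTie and hg38 are named in the submitters' processing notes; their roles, the annotation release and the use of strand: not given in the sources used here. Control columns are named NC and were taken as sh-Scb because the other columns name SOX4. A gene name table covered 56105 of 64252 IDs. GENCODE 29 gave coordinates, exon lengths and overlaps, and holds 56591 of them.

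Low counts were removed by filterByExpr, which asked for the equivalent of 10 counts in as many libraries as a group holds, and 15 in total. TMM scaling was applied, and a robust quasi-likelihood model was fitted to every gene in edgeR 4.0.16 (R 4.3.3). Benjamini-Hochberg adjustment ran over 19897 IDs, with 0.05 as the threshold. The SE is the log2 fold change divided by the square root of F. No label says that the libraries are separate cultures: the p-values reflect only how far these samples scatter, and that scatter may be technical. The libraries of a group differed by more than sampling, with a median chi-square per gene of 1.60 in sh-SOX4 and 1.71 in sh-Scb, against 0.455 for sampling alone. Applied to counts generated for 19897 IDs of the same comparison, the fit recovered 35.8% of genes changed 1.5-fold, 82.1% of those changed 2-fold and 95.5% of those changed 4-fold. It also called 12 of 19697 unchanged IDs. The changed IDs were drawn at random from all levels. All IDs were given 1 common spread, a coefficient of variation of 0.101, so these shares do not apply to the polymerase genes in particular.

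The genes and lists were chosen with earlier results of these data known. Full values are given for genes called with a log2 change of 0.5 or more, active-site subunits, POLR3G, POLR3GL, RRN3, UBTF and MAF1, and for lists of partners up to 3 genes with the smallest adjusted p; other genes were named to account for them. A Pol III gene that enters the counts, medians and sums is not reported here. As alternatives, scaling used median ratios or library totals, filtering was dropped or raised to 10 CPM in 2 libraries, replicate number entered as a block, single libraries were left out, and DESeq2 1.42.0 and limma-voom (limma 3.58.1) were run. A 1.2-fold minimum in edgeR and leaving out genes that share over 20% of their 50-base words with other genes were added after seeing the data. Figures were drawn with matplotlib 3.10.9.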

Additional observations from a re-analysis of the deposited data

How the results depend on the processing

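Of the 30 genes called higher, 25 were called higher under all 11 alternatives other than those added after seeing the data; the exceptions were BDP1, POLR2D, POLR2F, POLR3D and POLR3F. The count of higher genes ran from 26 with library totals to 30, was 25 of the 35 genes that share at most 20% of their words with other genes, and 21 against a 1.2-fold minimum, which called 5348 IDs in all, 2757 of them higher. Of all IDs tested, 23.2% were called higher in the main fit and 18.3% with library totals. This share was 11.7% with no filter, 33.1% with at least 10 CPM and 13.9% against the 1.2-fold minimum. The count of lower genes was 1, TAF1C, with library totals and with the filter of at least 10 CPM, and 0 to 1 when a library was left out. Higher calls among all IDs made up 52.5% of calls, and 40.9% with library totals.

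Group medians moved by more than the replicate spread as follows. With library totals they were 0.84 (Pol I only), 0.53 (Pol III only), 0.19 (Pol II only), 0.21 (Pol I factors) and 0.23 (Pol III factors). With at least 10 CPM they were 1.02 (Pol I only, POLR1H and its low counts removed), 0.25 (Pol I factors) and 0.27 (Pol III factors). The Pol I-only median was 1.12 with the replicate block and 1.24 with limma-voom; leaving out a library gave 0.91 to 1.28 for it and 0.24 to 0.39 for the Pol I factors. POLR1H went from 0.74 in the main fit to 1.16 with the replicate block and 1.39 with limma-voom. It thereby moved from below POLR1A, at 1.09 in each of these fits, to above it, which changed the genes that set the Pol I-only median. No cause was tested for the other moves, beyond the change of scaling itself and the removal of POLR1H.

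Genes that were not called changed sign in places. With library totals the values were -0.070 for POLR1D, -0.062 for POLR2J3, -0.036 for POLR2K, -0.034 for POLR3GL and -0.053 for TAF1B. Among genes at 10 CPM or more they were -0.034 for POLR1D, -0.027 for POLR2J3, -0.00079 for POLR2K and -0.018 for TAF1B. Leaving out a library gave -0.087 to 0.070 for BRF1, -0.014 to 0.072 for POLR1D, -0.13 to 3.59 for POLR1H, -0.023 to 0.10 for POLR2J3, -0.032 to 0.16 for POLR2K, -0.020 to 0.26 for POLR2M and -0.062 to 0.16 for TAF1B. POLR2M passed without sh-Scb replicate 2, with an adjusted p of 0.00143 by edgeR.

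The shared replicate numbers did not pair the libraries: the deviations of same-numbered libraries had a correlation of -0.07 over 11002 genes, and nothing in the labels says what a number marks. With the replicate block 30 genes were again higher, POLR2L in place of POLR2D, and 8378 IDs were called instead of 8775. Where an arm was left with 1 library, that library was assumed to vary like the others.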
